A study of Mus musculus with 2 samples.

Results

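The genes of catecholamine synthesis, cofactor supply and transport in the mouse adrenal gland are described here. They are 10 of the 55536 annotated genes of the deposited tables, taken by symbol for their known roles, and all 10 were found. The rule used no measured value, but the choice was made with earlier results of these data known. The synthesis enzymes are Th, Ddc, Dbh and Pnmt. The enzymes of cofactor synthesis are Gch1, Pts and Spr, and the transporters are Slc18a1, Slc18a2 and Slc6a2.

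The mice were males of 36 days, B6CASTF1/J hybrids that carry 1 genome each of C57BL/6J and CAST/EiJ, with no treatment or engineered allele in the labels, and total RNA of whole adrenal gland was sequenced. The series holds 1 group of 2 libraries, biological replicates 1 and 2, each made from 300 ng of RNA. The design therefore gives the level of each gene and the spread between 2 libraries, with no contrast and no p-value. The labels conflict on whether the libraries come from different animals, so the spread may be technical.

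Chromaffin cells of the adrenal medulla turn tyrosine into dopamine, noradrenaline and adrenaline and store them in acidic granules. Tyrosine hydroxylase (Th) sets the pace of the pathway and needs the cofactor tetrahydrobiopterin (BH4), which GTP cyclohydrolase 1 (Gch1), pyruvoyltetrahydropterin synthase (Pts) and sepiapterin reductase (Spr) make from GTP. Vesicular monoamine transporters load the granules with the help of a proton pump, and the noradrenaline transporter takes released noradrenaline back up.

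The libraries stood apart in transcripts of pancreas and liver. Replicate 1 held 175 expected counts over 6 pancreatic acinar genes, of which 3 were at 0, and replicate 2 held 227242. Over 6 liver genes the sums were 784 and 6499 counts, and over 6 islet genes 1 and 1684 counts, with 5 of the 6 islet genes at 0 in replicate 1. The 7 cortex genes summed to 14718 and 8187 TPM (a transcript level per unit of length, with a fixed sum per library), and the 10 chromaffin genes, Chga and Chgb among them, to 1424 and 1639 TPM, so both parts of the gland were present in each library. The 5 adipocyte genes summed to 548 and 661 TPM, so transcripts of fat were present in both libraries. Kidney tubule genes were near 0, with 67 and 73 counts over 6 genes, and 4 of them at 0 in both. What part these differences have in the values below was not tested. In bulk RNA, fewer cells of a type and less RNA per cell cannot be told apart.

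Promoter sequences were matched for 7 of the 10 genes, with 2 for Ddc (not for Pnmt, Slc18a1 and Slc6a2). They are RefSeq windows on GRCm38.p6, from 250 bases before to 50 bases after the annotated start, written 5′ to 3′ on the gene's strand. The windows of Th (chr7:142899946-142900245, minus strand) and Slc18a2 (chr19:59260628-59260927, plus strand) are shown because they alone of the 8 windows held the cAMP response element TGACGTCA. Both windows of Ddc are shown because the transcript files differed over which of its starts was used. The upstream one is chr11:11898095-11898394 and the downstream one chr11:11890359-11890658, both on the minus strand. Capitals mark motif matches, and a window with none is in lower case throughout.
Th: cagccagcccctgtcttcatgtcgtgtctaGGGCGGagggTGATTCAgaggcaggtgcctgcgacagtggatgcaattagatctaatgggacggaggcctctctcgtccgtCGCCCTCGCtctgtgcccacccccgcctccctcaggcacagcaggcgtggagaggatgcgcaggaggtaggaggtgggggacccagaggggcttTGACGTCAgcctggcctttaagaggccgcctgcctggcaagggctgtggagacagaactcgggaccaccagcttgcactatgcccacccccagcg
Slc18a2: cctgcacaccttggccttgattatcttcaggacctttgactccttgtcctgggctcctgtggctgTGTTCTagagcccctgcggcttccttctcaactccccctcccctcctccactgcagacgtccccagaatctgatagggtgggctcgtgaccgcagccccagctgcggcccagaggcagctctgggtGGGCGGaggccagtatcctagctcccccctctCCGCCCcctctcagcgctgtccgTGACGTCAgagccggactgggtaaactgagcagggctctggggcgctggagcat
Ddc upstream start: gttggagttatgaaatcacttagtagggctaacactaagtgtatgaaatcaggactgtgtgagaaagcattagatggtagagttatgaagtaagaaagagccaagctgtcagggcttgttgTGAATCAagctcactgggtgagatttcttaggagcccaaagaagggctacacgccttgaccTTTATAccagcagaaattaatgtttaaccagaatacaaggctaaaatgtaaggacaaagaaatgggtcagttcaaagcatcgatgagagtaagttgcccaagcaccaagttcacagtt
Ddc downstream start: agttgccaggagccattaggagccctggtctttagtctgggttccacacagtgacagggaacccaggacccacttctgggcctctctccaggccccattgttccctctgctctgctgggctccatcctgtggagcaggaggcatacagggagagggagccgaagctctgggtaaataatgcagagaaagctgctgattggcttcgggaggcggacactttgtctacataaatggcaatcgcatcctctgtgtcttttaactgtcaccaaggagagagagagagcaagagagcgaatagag

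The cAMP response element began 45 bases before the start of Th and 4 bases before that of Slc18a2. It was in 2 of the 8 windows, and in 1.79% of all 32851 windows of the table, counting both strands. The AP-1 motif TGANTCA was in the Th and upstream Ddc windows (7.81% of all windows), and the EGR motif GCGNGGGCG was in those of Th and Pts (5.55%). The SP1 motif GGGCGG was in 5 of 8 windows (35.7%), and in Pts it overlapped the EGR match. A TATA box, TATAAA, was found on the reverse strand of the upstream Ddc and the Gch1 windows (13.6%). The glucocorticoid receptor core AGAACA was in that of Slc18a2 (19.0%), on the reverse strand. The windows of Dbh and of the downstream Ddc start held none of the 6 motifs. The Dbh window (27165257 to 27165556) lies within the 634-base first exon of Dbh-201, which starts at 27165233. Bases before that start were thus not searched. A match describes letters in a window and not a bound site.

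The synthesis enzymes carried most of the signal of the 10 genes. Together the 4 summed to 503 and 488 TPM in replicates 1 and 2, which was 87.0% and 89.5% of the TPM of the 10 genes. The 3 cofactor enzymes summed to 58.1 and 44.2 TPM, or 10.03% and 8.10%, and the 3 transporters to 17.1 and 13.4 TPM, or 2.96% and 2.45%. All 10 genes together made up 0.186% and 0.235% of the TPM of nuclear protein-coding genes.

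**Figure D1:**
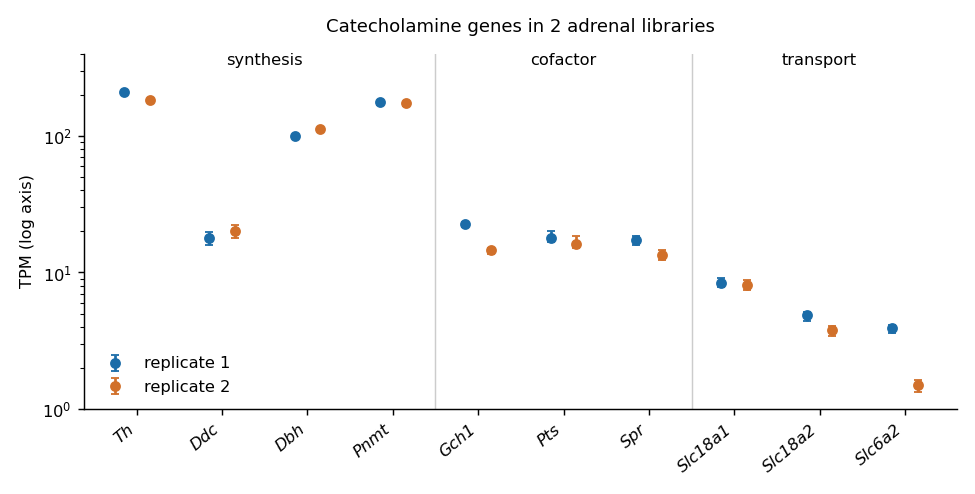
Deposited TPM (log axis) of the 10 genes in replicate 1 (left point of each pair) and replicate 2 (right point), with the deposited credibility bounds as bars. Th, Pnmt and Dbh lay at or above 99.9 TPM in both libraries, while Slc6a2 was lowest at 3.95 and 1.5 TPM.

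Th, which makes L-DOPA from tyrosine, was the highest of the 10. Its level was 210.3 TPM in replicate 1 and 184 TPM in replicate 2, from 12851 and 12360 counts. Its gene lies on chromosome 7 (142892752 to 142931128, minus strand, mm10), and it ranked 196 and 161 among 22015 nuclear protein-coding genes. Pnmt, the enzyme that methylates noradrenaline to adrenaline (chromosome 11, 98386450 to 98388181, plus strand), was at 175 and 173 TPM, from 6537 and 7072 counts, and ranked 245 and 186. The levels of Th and Pnmt in the 2 libraries did not overlap on the deposited TPM scale. In the second transcript file, a separate quantification of the same libraries, they did when compared across libraries. Th was at 456 and 483 TPM there and Pnmt at 365 and 467 TPM. Within each library Pnmt lay below Th in both quantifications. TPM values of the 2 quantifications are on different scales. As a share of nuclear protein-coding TPM, the 10 genes held 0.196% and 0.237% in the second, against 0.186% and 0.235%. Dbh, which makes noradrenaline from dopamine inside the granule (chromosome 2, 27165233 to 27183200, plus strand), was at 99.9 and 112 TPM, from 8636 and 10603 counts. It lay below Th and Pnmt in both libraries and in both quantifications.

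Ddc, the decarboxylase that makes dopamine from L-DOPA (chromosome 11, 11814101 to 11898144, minus strand), stood well below the other synthesis enzymes. Its level was 17.9 and 20.1 TPM in replicates 1 and 2, from 893 and 997 counts. Within a library, Ddc was at 0.0849 and 0.109 of the Th level, a mean of 0.0970 ± 0.0170 (SD, n = 2, as for the means that follow). The second transcript file gave a lower ratio, 0.0486 and 0.0653, below the first file's in both libraries. Dbh was at 0.475 and 0.606 of Th, a mean of 0.541 ± 0.0927, and Pnmt at 0.834 and 0.938, a mean of 0.886 ± 0.0736. All 3 ratios to Th were higher in replicate 2, in both quantifications. Pnmt was at 1.76 and 1.55 times the level of Dbh.

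The 3 enzymes of BH4 synthesis lay at the level of Ddc. Gch1, which commits GTP to the cofactor and is its rate-limiting step (chromosome 14, 47153895 to 47189413, minus strand), was at 22.8 TPM in replicate 1 and 14.6 TPM in replicate 2, from 2172 and 1535 counts. Pts, the second enzyme of the route (chromosome 9, 50521617 to 50528724, minus strand), was at 17.9 and 16.3 TPM, from 615 and 614 counts. Spr, which catalyses the last reduction (chromosome 6, 85130176 to 85137766, minus strand), was at 17.4 and 13.3 TPM, from 708 and 601 expected counts that were not whole, as arises where reads are shared between entries. In the order of mean TPM, each neighbour pair from Ddc over Gch1 and Pts to Spr overlapped on deposited TPM when compared across libraries. Within a library, Ddc lay below Gch1 in replicate 1 and above it in replicate 2. Gch1 was at 1.28 and 0.897 times Pts, so this pair also changed order. Pts was at 1.03 and 1.22 times Spr, and at 1.76 and 1.88 times in the second file. In replicate 1 the deposited bounds of Pts (16.7 to 20.0 TPM) and Spr (16.0 to 18.6 TPM) overlapped. Ddc, at 17.9 and 20.1 TPM, did not overlap with Spr on the deposited TPM scale. In the second file Ddc and Spr did overlap, at 22.2 and 31.5 TPM against 27.7 and 29.1 TPM. The second file put Pts above the other 3 in both libraries, at 48.8 and 54.7 TPM, against at most 35.8 TPM for Gch1, Spr and Ddc. Gch1 was at 0.109 and 0.0794 of Th.

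The transporters were the lowest of the 10. Slc18a1, the vesicular transporter VMAT1 of chromaffin cells (chromosome 8, 69037711 to 69089235, minus strand), was at 8.33 and 8.04 TPM, from 854 and 862 counts. Slc18a2, the vesicular transporter VMAT2 of neurons and also of adrenal medulla (chromosome 19, 59260896 to 59296012, plus strand), was at 4.85 and 3.81 TPM, from 640 and 556 counts. Slc18a1 was the higher of the 2 in both libraries, at 1.72 and 2.11 times Slc18a2, a mean of 1.91 ± 0.278, and at 1.97 and 2.34 times in the second file. Slc6a2, the noradrenaline transporter (chromosome 8, 92960079 to 93001667, plus strand), was at 3.95 and 1.5 TPM, from 828 and 351 counts. Its libraries lay further apart in ratio than those of any other of the 10, and its rank among coding genes was 9026 and 11056. Across libraries, its range overlapped that of Slc18a2 on the deposited scale but not in the second file. There Slc6a2 was at 6.78 and 3.59 TPM, against 7.85 and 8.47 TPM for Slc18a2. Within each library Slc6a2 lay below Slc18a2 in both quantifications.

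Other annotated genes overlap 4 of the 10. The annotated span of Slc18a1 shares 590 bases with that of Atp6v1b2, a proton pump subunit on the opposite strand with 3888 and 2784 counts. The kit was directional, but the strand setting of the counting is not given in the sources used here. Antisense genes that overlap Ddc, Slc18a1 and Slc18a2 were listed at 0 counts in both libraries. A processed pseudogene on the same strand within Gch1, Gm18811, had 13 and 10 counts.

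Ratios between the 2 libraries were taken from counts, replicate 1 over replicate 2, with TMM scaling (a factor per library that centres the bulk of genes) and exact 95% limits for counting error. A positive log2 ratio means higher in replicate 1. This scale differs from deposited TPM, in which nuclear protein-coding genes held 31.0% of the sum in replicate 1 and 23.2% in replicate 2. None of the 10 genes (0 of 10) reached 2-fold, against 6.86% of the 14780 genes with a mean CPM (counts scaled to a fixed library total) of 1 or more. At 1.5-fold, 1 of the 10 did, Slc6a2, against 17.3% of all tested genes. With 1 library on each side, these ratios have no replicate check.

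**Figure D2:**
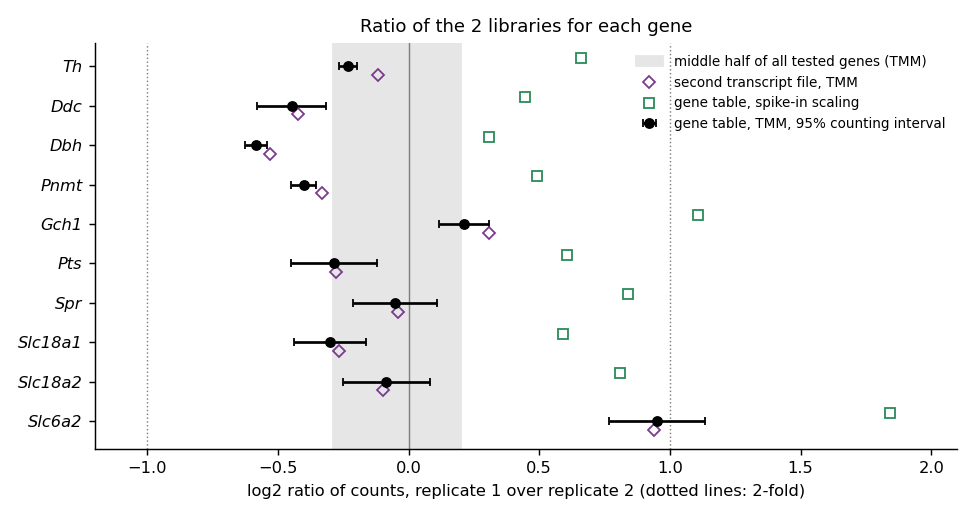
Log2 ratio of counts, replicate 1 over replicate 2, for each gene. Filled circles show the gene table with TMM scaling and 95% counting limits, diamonds the second transcript file and squares spike-in scaling. The grey band spans the 25th to 75th percentile of all tested genes, and dotted lines mark 2-fold. Slc6a2 lies farthest right at 0.95 and Dbh farthest left at -0.58. All 10 squares lie above 0, as did 93.7% of all tested genes with spike-in scaling.

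All 4 synthesis enzymes had log2 ratios below 0 with TMM scaling, as did 51.2% of all tested genes. All 4 were above 0 with scaling by the added spike-in RNA, as were 93.7% of all tested genes. That RNA took a larger share of the counts in replicate 2. With TMM, Dbh had -0.58 (limits -0.63 to -0.54), Ddc -0.45 (-0.58 to -0.32), Pnmt -0.40 (-0.45 to -0.35) and Th -0.23 (-0.27 to -0.20). These differences exceeded counting error, and their sizes lay between the 49.9th percentile (Th) and the 82.6th percentile (Dbh) of all tested genes. Among the cofactor enzymes, Gch1 was at 0.21 (0.12 to 0.31), Pts at -0.29 (-0.45 to -0.12) and Spr at -0.05 (-0.21 to 0.11), so Gch1 and Pts lay on opposite sides of 0 and Spr was within counting error. Slc18a1 was at -0.30 (-0.44 to -0.16) and Slc18a2 at -0.09 (-0.25 to 0.08), and of these Slc18a2 was within counting error.

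Slc6a2 stood apart from the other 9 with a log2 ratio of 0.95 (0.77 to 1.13), which was 1.93-fold higher in replicate 1. The second transcript file gave 0.94, from 984 and 431 estimated counts. In size it exceeded 92.4% of all tested genes. In the same libraries the cortex genes had a median log2 ratio of 0.37 and the chromaffin genes one of -0.60, both with TMM scaling. Of the cortex genes 7 of 7 were higher in replicate 1, against 48.8% of all tested genes. Of the chromaffin genes 8 of 10 were higher in replicate 2, against 51.2%. With spike-in scaling the medians were 1.26 and 0.29, against 0.88 over all tested genes. The part of cortex or chromaffin content in the value of Slc6a2 was not tested.

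Over the 10 genes the median log2 ratio was -0.26, against -0.01 over all tested genes, and 8 of 10 lay below 0, against 51.2% of all genes. Limits excluded 0 for 8 of 10 genes, against 58.4% of all genes, so a difference beyond counting error was common throughout the tables. Spike-in scaling moved every log2 ratio up by 0.89. It placed all 10 genes above 0, from 0.31 to 1.84, against 93.7% of all tested genes. Their median was 0.63, against 0.88 over all tested genes. With spike-in scaling, 2 of 10 reached 2-fold, Slc6a2 at 3.58-fold and Gch1 at 2.15-fold, against 37.3% of all tested genes.

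The first and second transcript files gave the same leading transcript for 8 of the 10 genes. Of 47 annotated transcripts, 36 had counts in the first file. Some others, such as Th-206, had counts in the second file only. In the first file a single transcript carried at least 95.1% of the gene's TPM in both libraries for Th, Dbh, Pnmt, Gch1 and Spr. Slc18a1-201 carried 91.7% and 82.5% in replicates 1 and 2, and Slc18a2-201 91.3% and 88.5%. Pts-201 carried 81.8% and 64.6% in the first file but 48.0% and 38.0% in the second. There the short coding transcript Pts-206, of 511 bases, took 30.9% and 35.0%, against 1.62% and 6.14% in the first file.

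Ddc was the gene whose transcripts differed most between the files. Its annotated starts lie 7736 bases apart. In rat and human, the downstream first exon is the neuronal one and the upstream first exon the one of non-neuronal tissue. The first file placed 90.6% and 77.6% of Ddc TPM on transcripts from the downstream start in replicates 1 and 2, with 844 and 808 counts, and 0% and 5.18% on the upstream start, with 0 and 77.8 counts. The second file placed 86.5% and 81.2% on the upstream transcript Ddc-210, with 805 and 886 counts, and 9.33% and 11.5% on the downstream start. Each file was alike in both libraries, so the difference lay between quantifications and not between libraries. The deposited bounds of the first file did not show it, with 7.17 to 11.0 TPM for the downstream Ddc-202 and at most 1.45 TPM for Ddc-210 in replicate 1. Which start these glands use cannot be told from the deposited tables. Both forms encode the same coding length, 1440 bases in Ddc-202 and in Ddc-210.

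**Figure D3:**
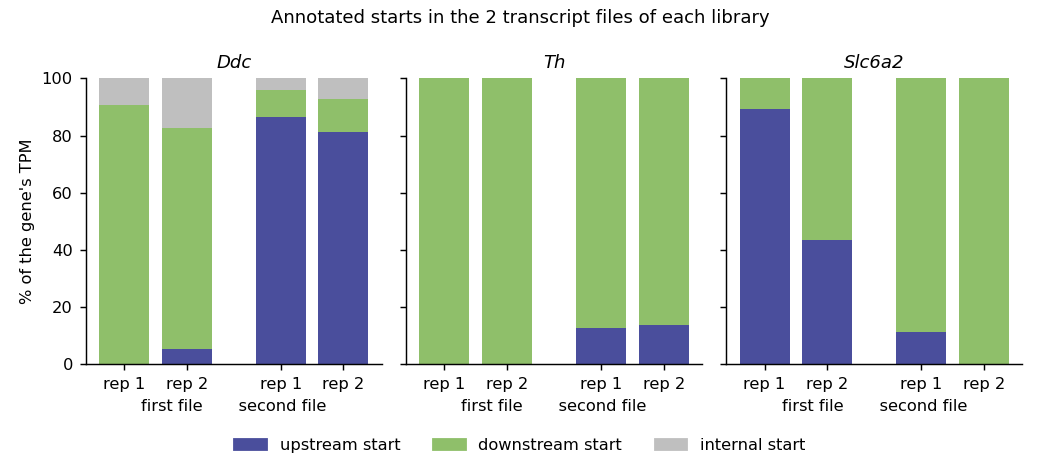
Share of each gene's TPM (stacked bars, in %) on transcripts from the upstream, downstream and internal annotated starts of Ddc, Th and Slc6a2, for replicates 1 and 2 in the first and the second transcript file. For Ddc the main colour changes between files: 90.6% and 77.6% downstream in the first and 86.5% and 81.2% upstream in the second.

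Th showed the difference between files to a lesser degree. The first file placed all of its TPM on Th-201 in both libraries. The second placed 69.5% and 78.4% there, and 12.6% and 13.7% on Th-206, whose first exon lies 31.1 kb upstream, with 977 and 927 counts. It put a further 9.73% and 6.48% on Th-203 and 8.15% and 1.38% on Th-204, both classed as nonsense-mediated decay transcripts. The window printed above belongs to the downstream start, that of Th-201.

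Slc6a2 has 2 transcripts, with starts 854 bases apart and the same coding length of 1851 bases. The first file placed 89.4% and 43.3% of the TPM on the upstream one, Slc6a2-202, in replicates 1 and 2. The second file placed 11.1% there in replicate 1 and practically none in replicate 2. The files thus differed in the leading transcript of Slc6a2 as in that of Ddc, while its summed counts were higher in replicate 1 in both.

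Transcripts with a retained intron, a class of the annotation, exist for 4 of the genes. Their share of the gene's TPM was higher in replicate 2 for 4 of 4 in both files. In the first file it was 2.54% and 4.04% for Gch1 in replicates 1 and 2, 9.06% and 15.7% for Pts, 8.27% and 17.5% for Slc18a1, and 8.66% and 11.5% for Slc18a2. In the second it was 3.00% and 4.31%, 6.31% and 13.8%, 9.13% and 18.7%, and 16.8% and 22.2% for the same genes. The same direction held for 71.7% of all genes with such transcripts in the first file and 70.5% in the second. The median share over all those genes was 9.16% and 12.4% in the first file. The direction of the 4 was thus that of most such genes. Gch1 and Slc18a2 stood below the median share of the first file in each library. In the second file the median was 9.84% and 13.1%, with Gch1 below and Slc18a2 above it in each library.

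**Figure D4:**
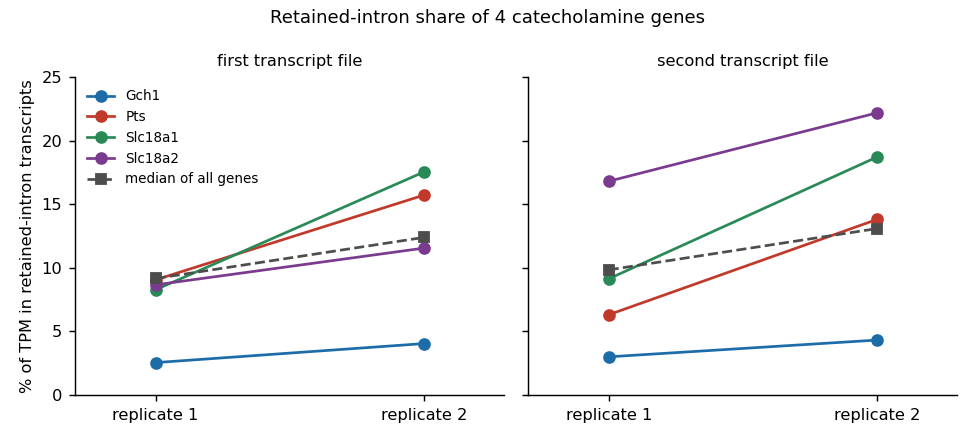
Share of TPM in retained-intron transcripts (in %) for Gch1, Pts, Slc18a1 and Slc18a2 in replicate 1 and replicate 2, in the first (left) and second (right) transcript file. The dashed line is the median over all genes with such transcripts, 9.16% and 12.4% in the first file, and each of the 4 lines is higher at replicate 2.

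Genes that recycle BH4 and control its synthesis were detected in both libraries, and 4 of 5 reached 1 TPM in each. Qdpr, which regenerates BH4 from its quinonoid form, was at 33.2 and 30.6 TPM in replicates 1 and 2. Pcbd2 and Pcbd1, the dehydratases of the same cycle, were at 21.8 and 14.6 TPM and at 4.39 and 6.08 TPM. Gchfr, the protein that mediates feedback inhibition of Gch1, was at 4.87 and 5.24 TPM, below Gch1 in both libraries. Of this list, 0 of 5 genes reached 2-fold, against 6.86% of all tested genes, with a median log2 ratio of -0.27. Of the reductases that can replace Spr in part, Akr1b3 was at 122 and 70.8 TPM and Cbr1 at 19.2 and 14.6 TPM. Cbr3 was at 1.91 and 1.95 TPM. Of these reductases, 0 of 3 reached 2-fold (median -0.04), against the same 6.86%.

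Other enzymes that depend on BH4 were low. Nos3, the endothelial nitric oxide synthase, was at 4.30 and 2.98 TPM, Agmo, which cleaves ether lipids, at 2.32 and 2.48 TPM, and Nos2, the inducible nitric oxide synthase, at 0.55 and 0.32 TPM. Of the list's 7 genes, 5 were tested, with a median log2 ratio of -0.43. Of these, 1 was past 2-fold, higher in replicate 2, as were 5.12% of all tested genes. The liver genes had a median of -3.29, with 6 of 6 past 2-fold higher in replicate 2.

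The genes of catecholamine breakdown were well represented, and 0 of 9 reached 2-fold (median log2 ratio 0.04), against 6.86% of all tested genes. Aldh2, an aldehyde dehydrogenase, was at 321 and 235 TPM in replicates 1 and 2, and Akr1a1, an aldehyde reductase, at 261 and 166 TPM. Aldh1a1, another aldehyde dehydrogenase, was at 14.8 and 12.2 TPM. These enzymes also act in other cells of the gland, and a bulk level does not assign them to chromaffin cells.

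Of 8 other monoamine transporters, 5 were tested. Slc6a4, the serotonin transporter, was at 12.8 and 13.1 TPM, above the 3.95 and 1.5 TPM of Slc6a2 in both libraries, although both are plasma membrane carriers of monoamines. Slc18b1, a vesicular polyamine transporter, was at 8.91 and 7.08 TPM. Slc29a4 and Slc22a3, low-affinity carriers, were at 6.87 and 5.86 TPM and at 2.74 and 1.88 TPM. Of the 5 tested, 1 was past 2-fold, higher in replicate 2, as were 5.12% of all tested genes. The median log2 ratio of the list was -0.10. Slc6a3, the dopamine transporter, had 2 counts in each library, under the floor of 3 counts, and is named after its values were seen.

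Genes that supply substrates and cofactors to the pathway included 1 of 13 past 2-fold, near the share of all tested genes, 6.86%. Slc3a2, the heavy chain of the carrier that brings in tyrosine, was at 134 and 47.5 TPM in replicates 1 and 2, with a log2 ratio of 1.07. Mat2a, which makes the methyl donor that Pnmt uses, was at 106 and 43.5 TPM, with 0.94. Atox1, a copper chaperone, was at 65.1 and 45.9 TPM, and Cyb561, which returns electrons to ascorbate in the granule for Dbh, at 49.9 and 42.9 TPM. The median of the list was 0.14. Of the 13, 8 were higher in replicate 1 with TMM scaling, Slc3a2 and Mat2a among them, and 5 in replicate 2. Of all tested genes, 48.8% were higher in replicate 1.

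Subunits of the vesicular proton pump, which serves every acidic compartment and not chromaffin granules alone, had a median log2 ratio of 0.19. Under TMM scaling 14 of 15 were higher in replicate 1, against 48.8% of all tested genes. None reached 2-fold (0 of 15), against 6.86% of all tested genes. Atp6v0c was at 135 and 84.9 TPM, Atp6v1e1 at 100.2 and 68.1 TPM, Atp6v1h at 85.6 and 51.7 TPM and Atp6ap1 at 70.9 and 44.1 TPM.

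**Figure D5:**
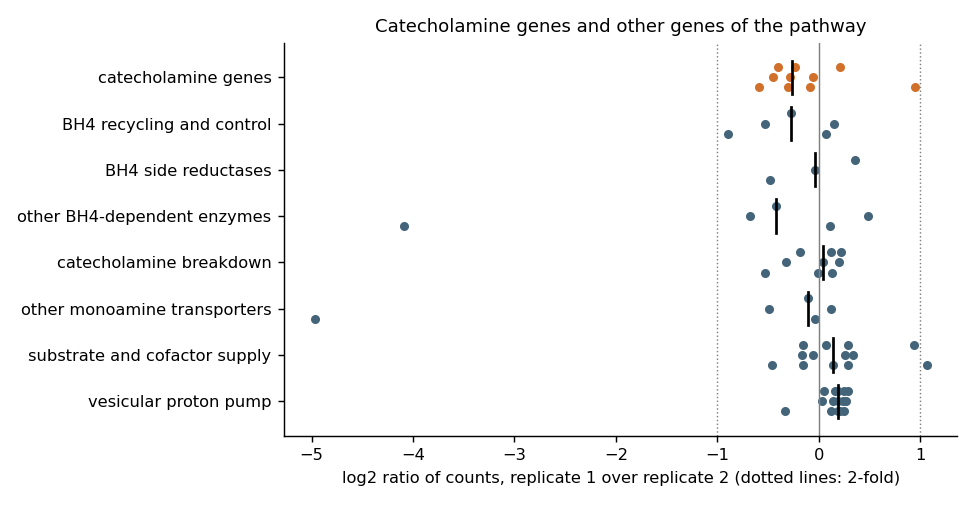
Log2 ratio of counts, replicate 1 over replicate 2, with TMM scaling, for the 10 catecholamine genes (top row) and the tested genes of 7 other pathway lists. Each point is a gene, black bars are list medians and dotted lines mark 2-fold. Past 2-fold lie Slc3a2 at 1.07 and 1 gene in each of 2 other lists, and none of the 10. Of all tested genes, 6.86% lie past 2-fold.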

How the data were processed

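Total RNA of 2 adrenal libraries was sequenced after depletion of ribosomal RNA with a directional kit and spike-in RNA, per the labels. Per library there were 1 gene table and 2 transcript tables (mm10, GENCODE M21). The first 2 of these hold expected counts, TPM and TPM credibility bounds that the authors derived from an alignment to transcripts. Each transcript's percent of its gene's TPM and the bounds, handled as signal values, were deposited by the authors too. In the second transcript table are estimated counts and TPM, deposited by the authors from a separate quantification. Its effective lengths imply fragments of 330 and 328 bases in replicates 1 and 2, against 100 bases in the other tables, and the effect of this on transcript shares was not tested. The programs behind either (not given in the sources used here) are therefore not named.

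All 55536 gene identifiers matched the annotation. Named genes summed to 35511291 and 30169338 counts in replicates 1 and 2. A further 26345 entries without a gene name were set aside (0.843% and 1.50% of counts), and nearly all of these counts were spike-in counts. Levels are deposited TPM, with mean and SD over 2 libraries. Log2 ratios used counts plus 0.5 and TMM scaling (edgeR 4.0.16, R 4.3.3; factors 1.02 and 0.982) over the 14780 genes at a mean CPM of 1 or more. Limits are exact conditional binomial (Clopper-Pearson) 95% limits, which, like the floor of 3 counts (0.0845 and 0.0994 CPM), cover counting error only. A gene was called at 2-fold or more. Spike-in scaling used the summed spike-in counts. Over the 49 spike-ins with 10 or more counts, log2 count ratios had an SD of 0.19. The procedure was tested on simulated data. Computation ran in Python 3.11.15 (scipy 1.17.1, numpy 2.4.6, pandas 2.3.3), with plots from matplotlib 3.10.9.

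Members and lists were chosen with earlier results of these data known. Named were the 10 genes and, of each pathway list, the 4 with the highest mean TPM and any past 2-fold; some of these count in list totals only and are not reported here by name. With 2 libraries, no likeness of pattern between genes was computed. Alternatives were other scalings, filters, thresholds, pseudocounts, TPM columns, the second transcript file and each replicate left out.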

Additional observations from a re-analysis of the deposited data

How the results depend on the processing

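The count of genes past 2-fold, 0 of 10, stayed at 0 with median-of-ratios factors, TMM over nuclear protein-coding genes, a mean CPM of at least 5 and the second transcript file. It was 1 with total counts, 1 with no filter and 1 at a 1.5-fold threshold, in each case Slc6a2, and 2 with spike-in counts. The median log2 ratio, -0.26, lay between -0.30 and -0.19 under the other alternatives and was 0.63 with spike-in counts, which move every ratio by the same amount. The ratio of Ddc to Th was 0.0569 in the second transcript file, against 0.0970, and the cause was not tested. With 1 replicate left out, each ratio is the value of the other library alone, so this adds no check beyond the 2 values. In replicates 1 and 2 the ratio of Pnmt to Th was 0.834 and 0.938, and Dbh to Th 0.475 and 0.606. Ddc to Th was 0.0849 and 0.109, and Slc18a1 to Slc18a2 1.72 and 2.11. Of 298 single-gene log2 ratios under an alternative, over 38 genes that include the 10 and others of the pathway lists, 57 moved beyond their counting limits. Spike-in scaling moved each of the 10 beyond its limits. Of the 10, only Th, Dbh and Pnmt moved so with any other alternative. No paired analysis was possible because the series has 1 group. Among the 10 genes, Slc6a2 had the widest counting limits, 0.77 to 1.13, and the isoform shares of Ddc and Slc6a2 differed between quantifications.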

Other observations

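The nearest annotated genes on each side of the catecholamine genes ranged from 0 to 2231 counts. Ascl2, a transcription factor gene 35701 bases from Th, had 2 and 4 counts in replicates 1 and 2, and Tcap, a muscle gene 1497 bases from Pnmt, had 4 and 4 counts. Kcnk18, a potassium channel gene 23522 bases from Slc18a2, was listed at 0 in both libraries. Pgap3, 496 bases from Pnmt on the opposite strand, had 98 and 81 counts, against 6537 and 7072 for Pnmt. Pdzd8, 1166 bases from Slc18a2, had 2231 and 1451 counts, more than the 640 and 556 counts of Slc18a2 itself. The lists of cholinergic nerve and mast cell genes were low, with 1 and 1 counts over 3 genes and 4.15 and 1.93 TPM over 5 genes. These values describe RNA in the gland and do not measure its innervation.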
